A study of Mus musculus with 27 samples.

Results

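The comparison set lungs of 129S1/SvlmJ mice against lungs of mice labelled C57L/J, across 20239 genes measured on microarrays. The members were chosen by strain label: 3 arrays of 129S1/SvlmJ and 3 arrays labelled C57L/J, 6 of the 27 arrays of a survey of 9 inbred strains. Inbred strains are lines of mice bred brother to sister until every animal is close to genetically identical, so a stable difference in RNA between strains can mark an inherited difference. All 6 arrays held total RNA of right lung from female mice of 11 weeks, labelled as normal lung, with no treatment named. Both strains carry the same tumour labels in the survey, increased severity and decreased frequency of spontaneous pulmonary adenoma, a benign tumour of the lung epithelium. The survey looked for early differences in lung RNA between strains that differ in these tumours, and this pair lies within 1 tumour class. The other 7 strains, C57BL/6J, A/J, MRL/MpJ, DBA/2J, KK/HlJ, BALB/cJ and C3H/HeJ, with 3 arrays each, entered the fit for its estimate of spread and showed which of the 2 strains stood apart. The design gives 3 females a strain, and no label ties an array to an animal, so the p-values measure the spread between arrays.

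A lung sample mixes alveolar epithelium, airway epithelium, vessels, mesothelium and resident or passing immune cells. The level of a cell type's marker in such a sample depends on how many of those cells were present and on how much RNA each made, and the 2 cannot be told apart here. The deposited signal of a gene also depends on how well a strain's sequence matches the array's probes, which follow a reference mouse sequence, and the part of that in any strain difference was not tested. All levels below are log2 signals as deposited, so a difference of 1 is a doubling, and all differences are 129S1/SvlmJ minus arrays labelled C57L/J. A gene passed the test at an adjusted p under 0.05 in limma (Benjamini-Hochberg over all 20239 genes), and was called where the difference was also at least 1.

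The labels were checked first. H2-Ea encodes the alpha chain of the class II molecule I-E, which mice of the H2 haplotype b do not transcribe because of a promoter deletion. The 129S1/SvlmJ arrays read 4.94, 4.89 and 4.86, against 11.07, 11.19 and 11.23 on the arrays labelled C57L/J. C57L/J is known as an H2b strain, so the high H2-Ea signal went against that label. C57BL/6J, also known as an H2b strain, read 4.79, and KK/HlJ read 4.88. The strain is therefore given below as labelled. Many of the gene lists and leading genes are also given as 129S1/SvlmJ against the mean of the other 7 strains. Values given below without the arrays labelled C57L/J are of this contrast. Those 3 arrays have no part in its differences, but they still enter the estimate of spread behind its p-values and counts. That second contrast shares the 129S1/SvlmJ arrays with the first, so the values are set side by side and are not independent of each other.

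Arrays of 129S1/SvlmJ correlated with each other at 0.994 to 0.995 across genes, arrays labelled C57L/J at 0.992 to 0.994, and each of the 6 was closest to an array of its own strain. The strain mean labelled C57L/J was closest to DBA/2J (r = 0.99333), with C57BL/6J at 0.99167. Its correlation with 129S1/SvlmJ (r = 0.99116) ranked 25 among the 36 pairs of strains. The 6 Y-linked genes measured, which female lungs lack, read between 2.46 and 5.33, a range that gives the signal of absent RNA. Its upper end rests on Sry, and without Sry the highest value was 3.93. Xist, which is made from the inactive X chromosome of females, read 9.91 to 10.25. Surfactant protein gene Sftpc, the defining product of alveolar type II cells, read 13.17 to 13.29 on the 129S1/SvlmJ arrays and 13.16 to 13.21 on the arrays labelled C57L/J. Run numbers in the array names are consecutive by strain, so run order and strain cannot be told apart.

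Of the 20239 genes, 152 were called, 0.751% of those tested. In 129S1/SvlmJ lungs 53 were higher (0.262%) and 99 were lower (0.489%). Without a minimum size, 1606 genes passed (7.94%), 587 higher (2.9%) and 1019 lower (5.03%), and this count dropped to 1028 when replicate 1 labelled C57L/J was left out. The 3 arrays of each strain did not overlap in 5336 genes (26.4%), among them 148 of the 152 called. Differences of at least 2 were found in 36 called genes and of at least 3 in 9. The median difference over all genes was -0.01.

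**Figure D1:**
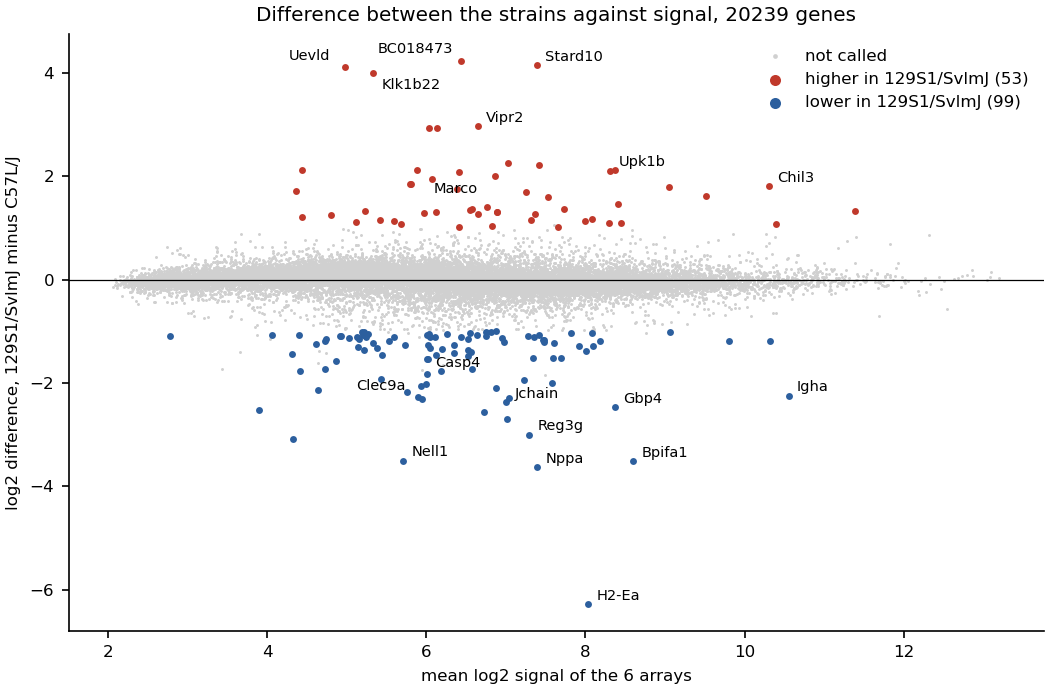
Log2 difference, 129S1/SvlmJ minus arrays labelled C57L/J (y axis), against the mean log2 signal of the 6 arrays (x axis) for 20239 genes. Red points are the 53 genes called higher in 129S1/SvlmJ and blue points the 99 called lower; H2-Ea, at -6.27, lies far below all others.

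The other 7 strains showed whose level was unusual. Against their mean, 129S1/SvlmJ had 74 called genes (0.366%), 28 higher (0.138%) and 46 lower (0.227%). The arrays labelled C57L/J had 83 (0.41%), 49 higher (0.242%) and 34 lower (0.168%). At adjusted p alone, 1986 genes passed for 129S1/SvlmJ (9.81%, 3.53% higher and 6.28% lower) and 1389 for C57L/J (6.86%, 3.68% higher and 3.19% lower). Among the 152 genes of the pair, 44 were also called for 129S1/SvlmJ alone, 46 for C57L/J alone, 4 for both strains and 58 for neither. In 20 of the 152 all 7 other strains lay nearer to the arrays labelled C57L/J, in 23 all 7 lay nearer to 129S1/SvlmJ, and in 109 they fell on both sides.

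**Figure D2:**
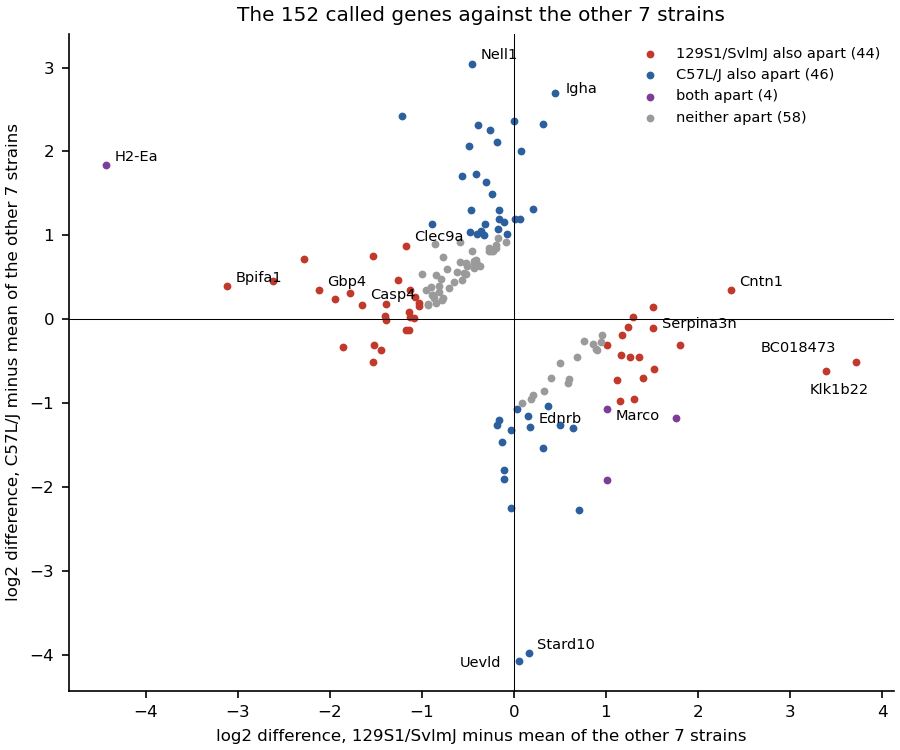
The 152 called genes, with the log2 difference of 129S1/SvlmJ minus the mean of the other 7 strains on the x axis and of C57L/J minus that mean on the y axis. Genes near the horizontal line, such as Casp4, Gbp4 and BC018473, lay away from that mean mainly in 129S1/SvlmJ. Genes near the vertical line, such as Stard10, Uevld, Nell1 and Igha, did so mainly on the arrays labelled C57L/J. KK/HlJ shared the level of 129S1/SvlmJ for BC018473 (8.37 beside 8.55) and that of C57L/J for Nell1 (7.27 beside 7.46).

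H2-Ea had the largest difference of any gene, -6.27 (SE 0.12) with an adjusted p of 6.71e-21. Its 129S1/SvlmJ level lay in the range of absent RNA with Sry counted, and above that range without Sry. No fold is given for it or for other genes at such a level. The other strains split cleanly, with C57BL/6J and KK/HlJ at 4.79 and 4.88 and the remaining 5 at 10.92 to 11.42. Without the arrays labelled C57L/J, 129S1/SvlmJ was lower than the mean of the 7 by 4.43. The other chain of I-E, H2-Eb1, did not pass, at 9.99, 10.10 and 9.70 in 129S1/SvlmJ and 10.02, 10.20 and 10.11 on the arrays labelled C57L/J. Of the 12 class II genes on the list 2 were higher and 1, H2-Ea, was lower, beside 2.9% and 5.03% of all genes. H2-Ab1, which encodes the beta chain of I-A, was higher by 0.52 and H2-Ob, a chain of the peptide-loading modulator H2-O, by 0.47. Both H2-Ab1 and H2-Ob missed the threshold when any of 3 or more single arrays was left out. The other 9 did not pass, among them the invariant chain gene Cd74. Against the other 7 strains 3 of the 12 were higher and 2 lower in 129S1/SvlmJ, beside 3.53% and 6.28% of all genes.

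Class I genes, which present peptides to cytotoxic T cells or act as ligands of natural killer cells, moved in both directions. Of 20 measured, 3 were higher and 5 lower, against 2.9% and 5.03% of all genes. The lower count was 1 without replicate 1 labelled C57L/J, near the share of all genes, and 2 without replicate 1 or 3 of 129S1/SvlmJ or replicate 3 labelled C57L/J. In 129S1/SvlmJ 3 were higher and 3 lower than in the other 7 strains, beside 3.53% and 6.28% of all genes. H2-Q8, a non-classical class I gene, read 6.99, 6.97 and 6.68 in 129S1/SvlmJ and 8.21, 7.68 and 7.99 on the arrays labelled C57L/J (difference -1.08, SE 0.18, adjusted p = 0.000397). H2-T10, another non-classical gene, was higher by 0.98 at 6.40 to 6.44 in 129S1/SvlmJ, against 5.26 to 5.54 on the arrays labelled C57L/J. H2-K2, a class I gene outside the list that was chosen after its values were seen, was higher by 1.15. Class I genes are near-identical copies of each other that differ between haplotypes, so the assignment of signal to single members is uncertain.

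Genes of cell-autonomous immunity were lower in 129S1/SvlmJ lungs. The interferon-inducible GTPases (the guanylate-binding proteins and the immunity-related GTPases) are made on exposure to interferon gamma and attack the vacuoles of intracellular microbes, and the Ifi200 proteins sense DNA in the cytosol and nucleus. Of 23 such genes measured, 13 were lower and 1 was higher, against 5.03% and 2.9% of all genes, and the median of the list was -0.63. The lower count was 7 to 8 when any array of 129S1/SvlmJ, or replicate 1 or 3 labelled C57L/J, was left out. Without the arrays labelled C57L/J, 14 of the 23 were lower in 129S1/SvlmJ than in the other 7 strains, against 6.28% of all genes.

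Promoters of 4 genes of this group are shown because they carry the element through which interferon acts, in members that went both ways. The sequences are from RefSeq, build GRCm38.p6, which is C57BL/6J sequence, and run from 250 bases before to 50 bases after the start of the gene. Capitals mark the interferon-stimulated response element, searched on both strands as GAAA, any 2 bases and GAAA, and the gamma-activated site, searched as TTCNNNGAA.

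Ifi211 promoter, chr1:173912997-173913296, minus strand: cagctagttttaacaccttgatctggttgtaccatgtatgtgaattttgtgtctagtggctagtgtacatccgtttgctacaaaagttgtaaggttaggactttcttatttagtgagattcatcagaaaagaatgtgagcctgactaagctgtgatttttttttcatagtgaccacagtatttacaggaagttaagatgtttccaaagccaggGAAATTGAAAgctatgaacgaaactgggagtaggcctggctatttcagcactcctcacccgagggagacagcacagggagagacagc
Ifi203 promoter, chr1:173942443-173942742, minus strand: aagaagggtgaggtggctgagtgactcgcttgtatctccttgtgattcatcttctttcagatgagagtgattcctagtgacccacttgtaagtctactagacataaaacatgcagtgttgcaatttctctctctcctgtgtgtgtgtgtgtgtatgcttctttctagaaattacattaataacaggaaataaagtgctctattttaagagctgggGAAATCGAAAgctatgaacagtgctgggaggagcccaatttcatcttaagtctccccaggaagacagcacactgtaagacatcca
Gm12250 promoter, chr11:58183593-58183892, plus strand: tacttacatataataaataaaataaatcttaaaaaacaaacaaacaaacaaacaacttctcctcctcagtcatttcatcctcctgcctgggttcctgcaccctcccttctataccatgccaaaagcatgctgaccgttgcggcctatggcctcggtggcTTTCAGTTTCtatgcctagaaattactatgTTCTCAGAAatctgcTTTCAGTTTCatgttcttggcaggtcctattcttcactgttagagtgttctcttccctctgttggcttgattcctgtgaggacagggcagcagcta
Igtp promoter, chr11:58199306-58199605, plus strand: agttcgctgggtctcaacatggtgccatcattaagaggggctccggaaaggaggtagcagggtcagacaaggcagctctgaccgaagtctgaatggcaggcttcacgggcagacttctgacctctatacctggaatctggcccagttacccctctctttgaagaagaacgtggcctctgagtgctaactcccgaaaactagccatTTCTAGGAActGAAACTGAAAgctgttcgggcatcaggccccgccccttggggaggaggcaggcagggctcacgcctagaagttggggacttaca

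The response element was found in 14 of the 17 listed genes that have a promoter in the table (82.4%), against 613 of 15624 genes tested (3.92%). The gamma-activated site was in 5 of the 17 (29.4%), against 9.08% of all. Among the 8 lower members with a promoter, 5 held the response element, and Ifi203, the only higher member, held it as well, at 1 of its listed starts. A match is a description of the letters, and these are not the sequences of either strain compared here.

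Gbp4, a guanylate-binding protein, had the largest difference of the group. It read 7.28, 6.93 and 7.20 in 129S1/SvlmJ and 9.93, 9.28 and 9.61 on the arrays labelled C57L/J, a difference of -2.47 (SE 0.26, adjusted p = 7.09e-07). All 7 other strains, at 8.74 to 9.81, lay on the side of C57L/J. Gm12250, known as Irgb10, a GTPase that acts on the membranes of bacteria, read 5.83, 6.23 and 5.63 in 129S1/SvlmJ and 8.75, 7.57 and 8.21 on the arrays labelled C57L/J (-2.28, SE 0.32, adjusted p = 3.79e-05). Gm4951, a predicted gene of the same GTPase class, was lower by 2.18, with no overlap of the arrays. Gm12250 and Gm4951 were not on the list and were named by their size. On the list, the other lower GTPase genes and Aim2 lay between -0.36 for Aim2, the sensor of the DNA inflammasome, and -1.19 for Gbp11, with Iigp1 at -1.10, Igtp at -0.95 and Irgm1 at -0.69. Of these, Gbp11 passed under each alternative that tested it. Igtp missed the threshold without replicate 1 or 3 of 129S1/SvlmJ or replicate 1 labelled C57L/J (adjusted p up to 0.115). Irgm1 missed it under 9 of 14 alternatives (adjusted p up to 0.265), Iigp1 under 6 of 14 (up to 0.187) and Aim2 under 8 of 13 (up to 0.193), single-array removals of either strain among them. Without the arrays labelled C57L/J, Gbp4 was lower by 2.12 and Gm12250 was lower by 1.53.

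The Ifi200 genes sit side by side on chromosome 1, and 3 called neighbours went in opposite directions. Ifi202b read 3.83, 3.99 and 3.78 in 129S1/SvlmJ, inside the range of absent Y-linked RNA with Sry counted and near its upper end without it, and 5.71, 5.54 and 5.55 on the arrays labelled C57L/J (-1.73, SE 0.16). Only DBA/2J, at 5.80, was like C57L/J, and the other 6 strains read 3.24 to 4.22. Ifi211 was lower by 1.77 (5.24, 5.32 and 5.34 in 129S1/SvlmJ and 7.32, 7.04 and 6.84 on the arrays labelled C57L/J). Ifi203 was higher by 1.04 (7.42, 7.45 and 7.17 in 129S1/SvlmJ and 6.24, 6.11 and 6.57 on the arrays labelled C57L/J). None of these 3 passed in 129S1/SvlmJ against the other 7 strains, with adjusted p of 0.22 to 0.42. These genes are close relatives whose probes may share signal, so their single values are uncertain.

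Casp4 encodes caspase-11, the receptor for cytosolic lipopolysaccharide, and 129S1/SvlmJ mice are known to carry an inactivating mutation in it. It was chosen after its values were seen. It read 4.95, 5.07 and 5.28 in 129S1/SvlmJ and 7.001, 6.85 and 6.91 on the arrays labelled C57L/J (-1.82, SE 0.10, adjusted p = 8.28e-12). All 7 other strains read 6.51 to 7.01, so the low level was that of 129S1/SvlmJ alone, and without the arrays labelled C57L/J the difference was -1.65. Casp12, a related caspase, was lower by 0.44 (adjusted p = 0.0401) and missed the threshold under 6 of 14 alternatives, with replicate 1 or 2 of 129S1/SvlmJ or replicate 1 or 3 labelled C57L/J left out among them (adjusted p up to 0.232).

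Among 27 interferon-stimulated genes, which include the antiviral genes Mx1, Ifit1, Oas1a and Irf7, 1 passed as lower, beside 5.03% of all genes. None passed as higher, and the median of the list was -0.09. The gene that passed was Cxcl9, a chemokine induced by interferon gamma that draws activated T cells. It read 4.79 to 5.01 in 129S1/SvlmJ and 5.44 to 6.02 on the arrays labelled C57L/J (-0.86, SE 0.16). The other 7 strains read 4.82 to 5.15 for Cxcl9, nearer to 129S1/SvlmJ. Against those strains 7 of the 27 genes were lower and 1 higher in 129S1/SvlmJ, beside 6.28% and 3.53% of all genes. Whether the GTPases and the antiviral genes differed from each other was not tested.

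Receptors for microbial molecules were lower in part. Of 27 pattern recognition genes, 8 were lower and 1 higher, against 5.03% and 2.9% of all genes, with a median of -0.33. Against the other 7 strains 11 were lower and 1 higher, beside 6.28% and 3.53% of all genes. In the pair the lower count was 4 without replicate 3 of 129S1/SvlmJ or without replicate 1 labelled C57L/J. Tlr6, which pairs with TLR2 to bind bacterial lipopeptides, read 5.10, 5.28 and 5.35 in 129S1/SvlmJ and 6.40, 5.96 and 6.23 on the arrays labelled C57L/J (-0.95, SE 0.13, adjusted p = 3.79e-05). Naip5, the sensor of flagellin that restricts Legionella, read 4.82, 4.63 and 4.68 in 129S1/SvlmJ and 5.95, 5.58 and 5.65 on the arrays labelled C57L/J (-1.02, SE 0.18). Clec7a, the receptor for fungal beta-glucan, was lower by 0.68, and Clec4n (dectin-2) by 0.58, which missed the threshold without replicate 2 of 129S1/SvlmJ or replicate 1 or 2 labelled C57L/J (adjusted p up to 0.0773). Ly96, the MD-2 subunit of the lipopolysaccharide receptor, was the higher member, at 0.50, and missed the threshold under 6 of 13 alternatives, among them quantile normalization and the removal of replicate 1 or 3 of 129S1/SvlmJ or replicate 2 or 3 labelled C57L/J (adjusted p up to 0.239). Tlr4 itself did not pass (-0.39, adjusted p = 0.071).

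**Figure D3:**
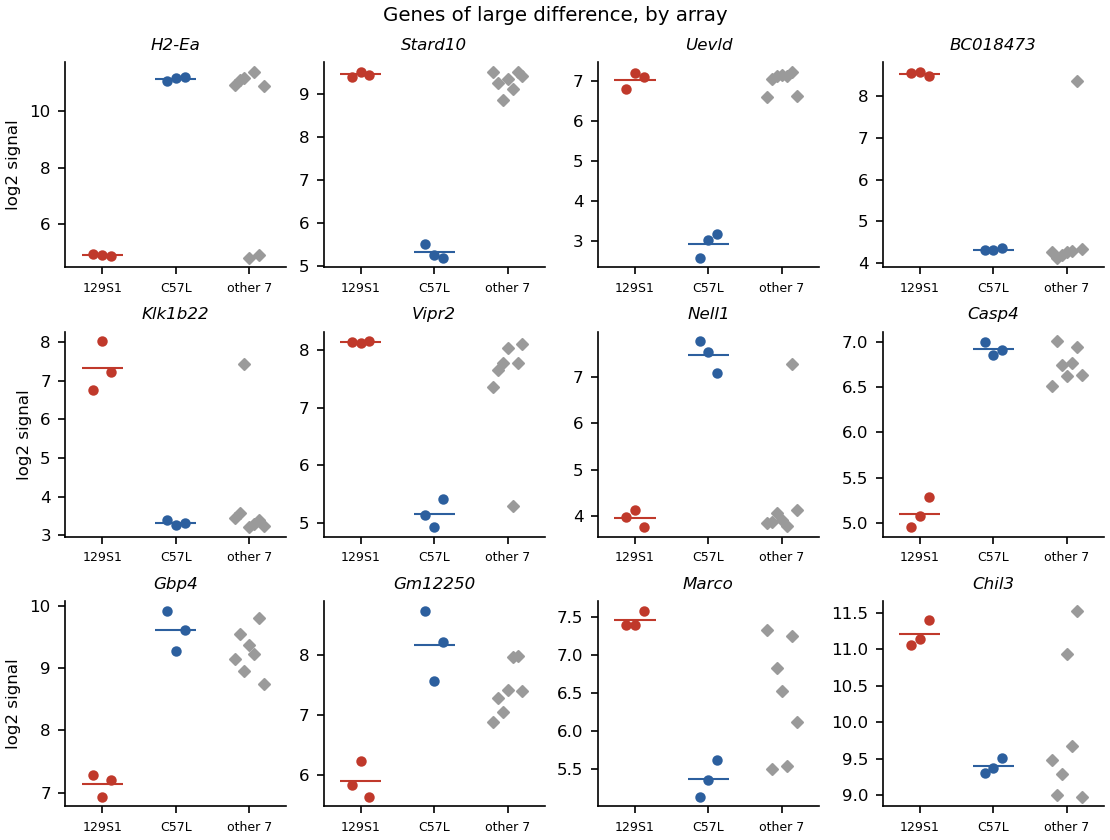
Log2 signal (y axis) of 12 genes on the 3 arrays of 129S1/SvlmJ (red) and the 3 labelled C57L/J (blue), with bars at the means, and the means of the other 7 strains as grey diamonds. The strains do not overlap in any of the 12, and the other strains lie with 129S1/SvlmJ for Stard10 and Uevld, with C57L/J for Casp4 and Gbp4, and on both sides for H2-Ea, Marco and Chil3.

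Genes of proteins secreted onto the airway surface were lower in part. Of 13 goblet cell and secreted defence genes, 7 were lower and none higher, where 5.03% of all genes were lower. The median was -0.53, the other 6 estimates being above 0. The count was 3 without replicate 2 labelled C57L/J and 4 without replicate 3 labelled C57L/J or replicate 1 of 129S1/SvlmJ. The mucin genes Muc5b and Muc5ac and their regulator Spdef did not pass. Without the arrays labelled C57L/J, 6 of the 13 were lower than in the other 7 strains, beside 6.28% of all genes.

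Bpifa1 encodes SPLUNC1, an abundant secreted protein of the upper airway that binds bacteria and regulates airway surface liquid. It read 6.41, 6.74 and 7.37 in 129S1/SvlmJ and 9.87, 10.25 and 10.95 on the arrays labelled C57L/J, a difference of -3.52 (SE 0.38) or 11.4-fold (adjusted p = 1.1e-06). The other 7 strains read 8.60 to 10.85, all nearer to C57L/J, and against their mean 129S1/SvlmJ was lower by 3.12. Its relative Bpifb1 was lower by 1.01 with an adjusted p of 0.0391, and missed the threshold under 6 of 14 alternatives, among them quantile normalization and the removal of replicate 1 of 129S1/SvlmJ or replicate 2 or 3 labelled C57L/J (adjusted p up to 0.26). Reg3g, an antibacterial lectin of epithelia, read 4.86, 6.61 and 5.89 in 129S1/SvlmJ and 7.98, 9.04 and 9.34 on the arrays labelled C57L/J (-2.998, SE 0.54, adjusted p = 0.000715). The arrays of Reg3g spread widely within each strain, yet did not overlap. Pigr, the receptor that carries IgA across the epithelium into the airway, was lower by 0.97 (7.55, 7.60 and 7.33 in 129S1/SvlmJ and 8.43, 8.43 and 8.55 on the arrays labelled C57L/J).

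Lactoferrin, Ltf, which binds iron in secretions and in neutrophil granules, was lower by 1.21 (adjusted p = 0.0144), but did not pass without replicate 1 of 129S1/SvlmJ or without replicate 2 or 3 labelled C57L/J, with adjusted p up to 0.108. Lcn2, which captures bacterial siderophores, was lower by 0.53 and missed the threshold without replicate 2 labelled C57L/J (adjusted p = 0.0523). Tff2, a trefoil peptide of mucus, was lower by 0.68, but missed the threshold whichever of the 6 arrays was left out (adjusted p up to 0.139). Cftr, the chloride channel mutated in cystic fibrosis, was called as well. It read 7.07, 6.75 and 6.97 in 129S1/SvlmJ and 8.63, 8.47 and 8.24 on the arrays labelled C57L/J (-1.52, SE 0.14, adjusted p = 1.03e-07). Here the arrays labelled C57L/J were the unusual ones, above all 7 other strains, which read 6.65 to 8.04.

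Genes of motile cilia were lower as a group. Motile cilia on airway cells beat to move mucus, and their core holds radial spokes, dynein arms and docking proteins that are made almost only in ciliated cells. Of 16 ciliated-cell genes, 10 were lower and none higher, all 16 estimates were below 0, and the median was -0.46, where 5.03% of all genes were lower. The count stayed between 9 and 11 when single arrays were left out. Against the other 7 strains 12 of the 16 were lower in 129S1/SvlmJ, beside 6.28% of all genes. On the arrays labelled C57L/J 4 of the 16 were higher than in those strains, beside 3.68%.

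Promoters of Hydin, from the list, and of Cdhr3, added after its values were seen, are shown because they carry the letters to which RFX factors, the regulators of ciliary genes, are known to bind. They are RefSeq sequences of build GRCm38.p6 over the same window. Capitals mark the X-box half-site, searched as GTTGCC on both strands.

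Hydin promoter, chr8:110266727-110267026, plus strand: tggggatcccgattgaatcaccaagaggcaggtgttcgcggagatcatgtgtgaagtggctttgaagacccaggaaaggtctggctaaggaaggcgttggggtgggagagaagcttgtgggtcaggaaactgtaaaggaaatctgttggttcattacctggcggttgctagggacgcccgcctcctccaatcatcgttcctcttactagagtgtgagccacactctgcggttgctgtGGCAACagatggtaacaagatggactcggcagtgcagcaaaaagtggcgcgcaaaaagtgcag
Cdhr3 promoter, chr12:33092826-33093125, minus strand: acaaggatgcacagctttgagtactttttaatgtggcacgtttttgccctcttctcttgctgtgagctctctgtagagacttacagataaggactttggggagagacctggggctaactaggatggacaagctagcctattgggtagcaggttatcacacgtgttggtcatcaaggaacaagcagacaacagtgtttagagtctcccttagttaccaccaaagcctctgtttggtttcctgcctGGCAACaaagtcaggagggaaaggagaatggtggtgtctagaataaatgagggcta

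The half-site was in 6 of 13 listed ciliary genes with a promoter in the table (46.2%), 5 of the 8 lower members among them, against 13.9% of all genes tested.

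Rsph1, a protein of the radial spoke head, had the largest difference of the ciliary list. It read 6.65, 6.42 and 6.66 in 129S1/SvlmJ and 8.01, 8.14 and 8.13 on the arrays labelled C57L/J (-1.51, SE 0.11, 2.86-fold, adjusted p = 2.99e-09). KK/HlJ, at 8.21, shared the level of the arrays labelled C57L/J, and the remaining strains lay between, at 6.89 to 7.48. Ccdc39, which sets the repeat length of the ciliary axoneme, was lower by 0.95, Rsph4a, another spoke head protein, by 0.72, and Hydin, of the central pair apparatus, by 0.64. Dynein and accessory genes were lower by less, with Dnah5 at -0.53, Dynlrb2 at -0.49 and Dnah11 at -0.42. Dnah11 missed the threshold without replicate 2 of 129S1/SvlmJ or replicate 1 labelled C57L/J (adjusted p up to 0.131). Foxj1, the transcription factor that drives the ciliary programme, missed the threshold (-0.38, adjusted p = 0.052).

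Ciliated-cell genes outside the list went the same way and were chosen after their values were seen. Tmem212 read 7.09, 6.83 and 7.06 in 129S1/SvlmJ and 8.11, 8.21 and 8.33 on the arrays labelled C57L/J (-1.22, SE 0.10), and all 7 other strains lay at 7.92 to 8.40. Cdhr3, the receptor for rhinovirus C on ciliated cells in humans, was lower by 1.28, its relative Cdhr4 by 1.04 and Fbxl13 by 1.02. Of 10 markers of club cells, the secretory cells of the small airways, 1 was lower and none higher, beside 5.03% of all genes lower. It was Aldh3a1, lower by 0.53. Against the other 7 strains 2 of the 10 were lower in 129S1/SvlmJ and none higher, beside 6.28% of all genes lower. Scgb1a1, the main secreted product of club cells, read 12.90 to 12.91 in 129S1/SvlmJ and 12.78 to 12.87 on the arrays labelled C57L/J, and did not pass (0.08, SE 0.08).

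**Figure D4:**
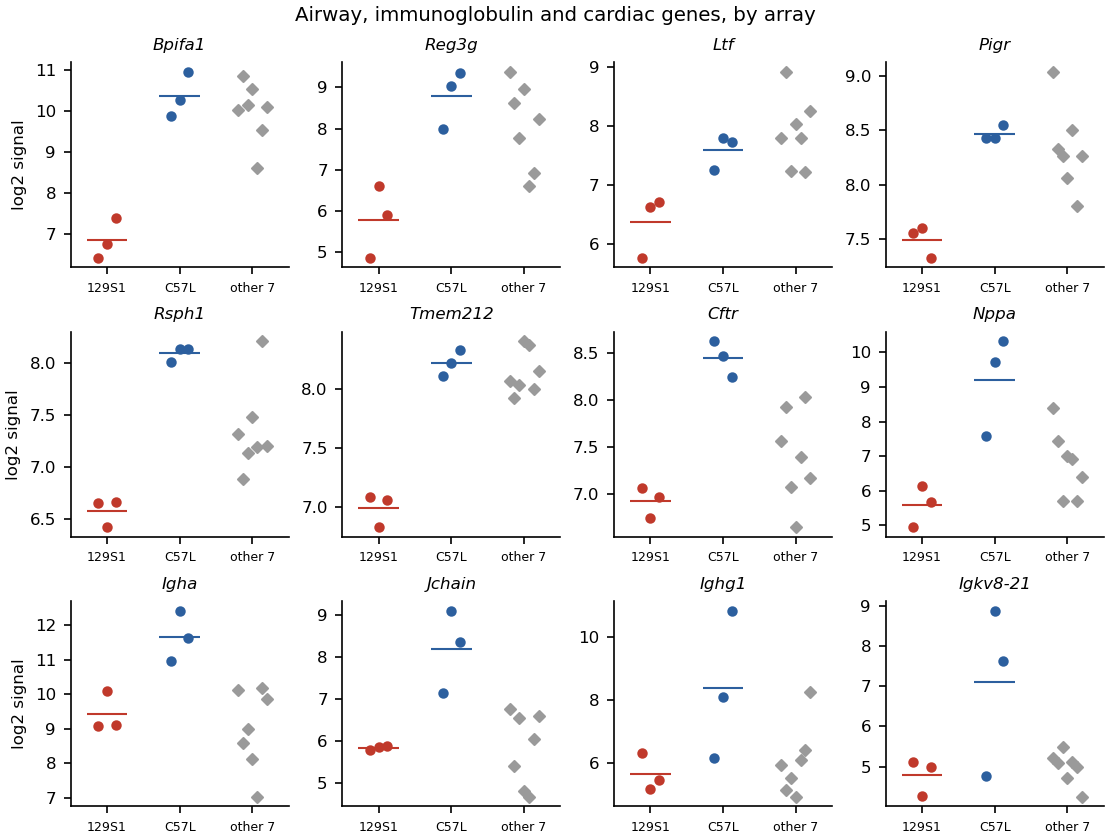
Log2 signal (y axis) of airway, cardiac and immunoglobulin genes on the 3 arrays of 129S1/SvlmJ (red) and the 3 labelled C57L/J (blue), with bars at the means, and the means of the other 7 strains as grey diamonds. For Bpifa1, Ltf and Tmem212 the 129S1/SvlmJ arrays lie below every other strain, and for Igha and Jchain the arrays labelled C57L/J lie above every other strain; Ighg1 and Igkv8-21 overlap between the strains.

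Immunoglobulin genes were higher on the arrays labelled C57L/J, and these arrays differed widely among themselves. Plasma cells of the airway wall secrete IgA, whose dimers are held together by the J chain. Igha, the constant region of IgA, read 9.07, 10.10 and 9.11 in 129S1/SvlmJ and 10.96, 12.43 and 11.63 on the arrays labelled C57L/J (-2.24, SE 0.34, adjusted p = 9.47e-05). Jchain read 5.77, 5.84 and 5.86 in 129S1/SvlmJ and 7.12, 9.10 and 8.34 on the arrays labelled C57L/J (-2.36, SE 0.53, adjusted p = 0.00571). Ighg1 read 6.34, 5.18 and 5.47 in 129S1/SvlmJ and 6.18, 8.10 and 10.83 on the arrays labelled C57L/J, so the strains overlapped and 2 of the 3 arrays labelled C57L/J were high. Its adjusted p was 0.0198 and reached 0.143 under the alternatives, and it missed the threshold with only the 6 arrays of the pair, without replicate 2 or 3 of 129S1/SvlmJ or without replicate 3 labelled C57L/J.

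Of 82 immunoglobulin genes by symbol, 12 were called lower and none higher, where 0.489% of all genes were called lower. Among them were 9 of 44 kappa variable segments, in 2 stretches of neighbouring segments on chromosome 6, and none of 23 heavy variable segments. Igkv8-24 read 2.91, 2.32 and 2.69 in 129S1/SvlmJ and 3.23, 5.50 and 6.75 on the arrays labelled C57L/J. Igkv8-21 read 5.12, 4.28 and 4.98 in 129S1/SvlmJ and 4.77, 8.88 and 7.63 on the arrays labelled C57L/J. Several kappa segments missed the threshold when single arrays of either strain were left out or only the 6 arrays of the pair were fitted, with adjusted p over the alternatives of up to 0.253 for Igkv12-44, 0.16 for Igkv8-21 and 0.0874 for Igkv19-93. In Igkv8-24 and Igkv8-21 replicate 1 labelled C57L/J lay within or near the 129S1/SvlmJ range and the other 2 arrays were high. The median over the 44 kappa segments was 3.98 to 4.17 in 129S1/SvlmJ and 4.45, 5.48 and 4.87 on the arrays labelled C57L/J. Against the other 7 strains the 129S1/SvlmJ difference was 0.45 for Igha (adjusted p = 0.31) and 0.01 for Jchain. Of 12 genes on the plasma cell and IgA list 4 were lower, beside 5.03% of all genes, Igha, Jchain, Ighg1 and the epithelial receptor Pigr. The other plasma cell genes Xbp1, Sdc1, Tnfrsf17, Irf4 and Prdm1 did not pass, nor did Mzb1.

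Of 13 B cell genes, 4 passed as lower, beside 5.03% of all genes, and 12 of 13 estimates were below 0, with a median of -0.65. No B cell gene passed without replicate 3 of 129S1/SvlmJ or without replicate 3 labelled C57L/J, 1 passed without replicate 1 of 129S1/SvlmJ, and 1 passed with the replicate number in the fit. Ms4a1, which encodes CD20, read 6.33, 6.79 and 6.26 in 129S1/SvlmJ and 6.99, 7.04 and 7.95 on the arrays labelled C57L/J (-0.86, adjusted p = 0.0413, up to 0.228 under the alternatives). Without the arrays labelled C57L/J, 8 of the 13 were lower in 129S1/SvlmJ than in the other 7 strains, beside 6.28% of all genes.

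Dendritic cells take up antigen and prime T cells. Of their 13 genes 6 were lower and 1 higher, against 5.03% and 2.9% of all genes, and the lower count was 6 under each removal of a single array. Clec9a, a receptor for dead cells on cross-presenting dendritic cells, read 5.27, 4.68 and 4.77 in 129S1/SvlmJ and 7.11, 6.94 and 6.82 on the arrays labelled C57L/J (-2.05, SE 0.14, adjusted p = 8.09e-10). Xcr1, the chemokine receptor of the same cells, was lower by 1.07, and Itgae, which encodes CD103, by 0.90. Cd209a, a lectin of monocyte-derived dendritic cells, read 5.26, 5.20 and 5.30 in 129S1/SvlmJ and 6.78, 6.55 and 7.001 on the arrays labelled C57L/J (-1.53, SE 0.14). For Cd209a all 7 other strains, at 6.55 to 7.52, lay with C57L/J.

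Wdfy4, needed for cross-presentation, was lower by 1.20 and Cd207 (langerin) by 1.07, both chosen after their values were seen. Ccl22, a chemokine made by mature dendritic cells, was lower by 1.11, and Flt3, the receptor that sustains dendritic cell precursors, by 0.95. Siglech, of plasmacytoid dendritic cells, was the higher member at 0.34, and missed the threshold without replicate 1 or 2 of 129S1/SvlmJ or replicate 1 labelled C57L/J (adjusted p up to 0.184). Clec9a stood in a run of 3 called neighbours on chromosome 6 with Klrb1f (-1.22) and Clec12b (-1.54), lectin receptors of the natural killer gene region. The shared transcription factors Batf3 and Zbtb46 did not pass. Against the other 7 strains 6 of the 13 were lower in 129S1/SvlmJ, beside 6.28% of all genes. On the arrays labelled C57L/J 5 were higher and 1 lower, beside 3.68% and 3.19%. For Clec9a, Xcr1 and Itgae 129S1/SvlmJ lay below all 7 other strains and the arrays labelled C57L/J above them. For Flt3 and Ccl22 the arrays labelled C57L/J also lay above all 7. In Ccl22 129S1/SvlmJ, at 4.58, read like BALB/cJ and DBA/2J, at 4.59 and 4.55.

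Of 20 natural killer and cytotoxic genes, 5 were lower and none higher, beside 5.03% of all genes lower, and 3 passed without replicate 3 of 129S1/SvlmJ or replicate 1 labelled C57L/J. Ccl5, a chemokine of cytotoxic cells, read 7.84, 7.87 and 7.07 in 129S1/SvlmJ and 8.79, 8.55 and 8.99 on the arrays labelled C57L/J (-1.18, SE 0.20, adjusted p = 0.00036). Gzma, a serine protease of their granules, was lower by 1.10, and Klrg1, an inhibitory receptor, by 1.14. Ncr1 and Eomes, which define natural killer cells, did not pass. Against the other 7 strains 11 of the 20 were lower in 129S1/SvlmJ, beside 6.28% of all genes. Of 14 neutrophil genes 4 were lower, Ltf among them, beside 5.03% of all genes. S100a8 was lower by 1.34, Mmp8 by 0.95 and S100a9 by 0.75. Only 2 passed when replicate 1 of 129S1/SvlmJ, or replicate 2 or 3 labelled C57L/J, was left out. S100a9 and Ltf were the members lost (adjusted p up to 0.194 and 0.108). In 129S1/SvlmJ 6 of the 14 were lower than in the other 7 strains, beside 6.28% of all genes. Of 14 T cell genes 2 were higher (Cd247 and Cd8b1) and 1 lower (Cd3g), beside 2.9% and 5.03% of all genes. Each of these genes differed by under 0.70. Each of the 3 missed the threshold under at least 1 single-array removal, with adjusted p up to 0.0644 for Cd247 (without replicate 1 labelled C57L/J), 0.18 for Cd8b1 and 0.127 for Cd3g. Cd3e, Cd4 and Cd8a did not pass. Against the other 7 strains no T cell gene of the list passed in 129S1/SvlmJ.

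Alveolar macrophages, which clear particles and surfactant from the air spaces, differed in a few markers. Of 14 genes 4 were higher, against 2.9% of all genes, and none lower, with a median of -0.06. The higher count was 4 under each removal of a single array, and 1 gene was lower without replicate 3 labelled C57L/J. Relative to the other 7 strains 3 were higher in 129S1/SvlmJ, beside 3.53% of all genes, and none lower. Marco, a scavenger receptor for inhaled particles and bacteria, read 7.39, 7.39 and 7.58 in 129S1/SvlmJ and 5.13, 5.35 and 5.62 on the arrays labelled C57L/J (2.09, SE 0.19, adjusted p = 6.21e-08). BALB/cJ and DBA/2J, at 5.50 and 5.54, read like the arrays labelled C57L/J, and A/J and KK/HlJ, at 7.32 and 7.25, like 129S1/SvlmJ. Chil3, the chitinase-like protein Ym1, read 11.06, 11.14 and 11.41 in 129S1/SvlmJ and 9.31, 9.37 and 9.52 on the arrays labelled C57L/J (1.804, SE 0.20). C57BL/6J and KK/HlJ, at 10.94 and 11.53, shared the high level. Against the other 7 strains 129S1/SvlmJ was higher by 1.01 for Marco and by 1.36 for Chil3. Siglecf was higher by 0.70 and Krt79 by 0.55, whereas Pparg, Mrc1, Abcg1 and Plet1, other genes of these cells, did not pass.

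Mesothelial genes were higher in 129S1/SvlmJ lungs than on the arrays labelled C57L/J. The mesothelium is the flat cell layer that covers the lung surface. Of 8 genes 5 were higher, none lower, and all 8 estimates were above 0, with a median of 0.63, against 2.9% of all genes higher. The count was 3 without replicate 3 of 129S1/SvlmJ. Against the other 7 strains 4 of the 8 were higher in 129S1/SvlmJ, beside 3.53% of all genes. On the arrays labelled C57L/J 4 of the 8 were lower than in those strains, beside 3.19%. Upk1b, a uroplakin, read 9.25, 9.46 and 9.40 in 129S1/SvlmJ and 7.70, 6.75 and 7.32 on the arrays labelled C57L/J (2.11, SE 0.17, 4.32-fold, adjusted p = 7.15e-09). C57BL/6J, at 9.26, shared the high level, and the remaining strains read 7.57 to 7.95. Lrrn4 was higher by 1.31, Msln, which encodes mesothelin, by 1.18 and Upk3b by 0.83. Upk3b missed the threshold without replicate 2 or 3 of 129S1/SvlmJ or replicate 2 labelled C57L/J (adjusted p up to 0.116). Replicate 2 labelled C57L/J was the lowest array for Upk1b, Lrrn4, Msln and Upk3b. Wt1 and Muc16 did not pass.

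Of 15 endothelial genes 3 were higher and 1 lower, beside 2.9% and 5.03% of all genes, with a median of 0.06, and Pecam1, Cdh5, Kdr and Vwf did not pass. Against the other 7 strains 6 of the 15 were lower in 129S1/SvlmJ, beside 6.28% of all genes. On the arrays labelled C57L/J 6 were lower too, beside 3.19%. Ednrb, a receptor for endothelin on lung capillary cells, read 9.13, 9.04 and 9.24 in 129S1/SvlmJ and 7.90, 7.69 and 7.44 on the arrays labelled C57L/J (1.46, SE 0.09, adjusted p = 2e-10). All 7 other strains read 8.87 to 9.07, so the arrays labelled C57L/J stood apart, and without them the difference was 0.17 (adjusted p = 0.13). Gpihbp1, which anchors lipoprotein lipase in capillaries, was higher by 0.96 with the same pattern.

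Further genes with this pattern were chosen after their values were seen, except Spock2, which was named by its size. Kcnj15, a potassium channel, read 8.16, 8.01 and 8.12 in 129S1/SvlmJ and 6.50, 6.47 and 6.23 on the arrays labelled C57L/J, and 8.05 to 8.48 in the other 7 strains. Ly6c1, a surface protein of endothelial cells and monocytes, was higher by 1.33 and Spock2, a matrix proteoglycan, by 1.79. Tmem176b, an ion channel of immature dendritic and other cells, was higher by 1.09. In each of these genes all 7 other strains lay nearer to 129S1/SvlmJ. For alveolar epithelium, 2 of 12 type I genes were lower (Igfbp2 by 0.82 and Pdpn by 0.54), beside 5.03% of all genes. Against the other 7 strains 4 of the 12 were higher in 129S1/SvlmJ and none lower, beside 3.53% of all genes higher. On the arrays labelled C57L/J 6 were higher than in those strains, beside 3.68%. In the pair 1 of 15 type II genes was lower and 1 higher, near the shares of all genes. These were Lyz1, a lysozyme, at -0.56, and Hc, the complement component C5, at 0.88.

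**Figure D5:**
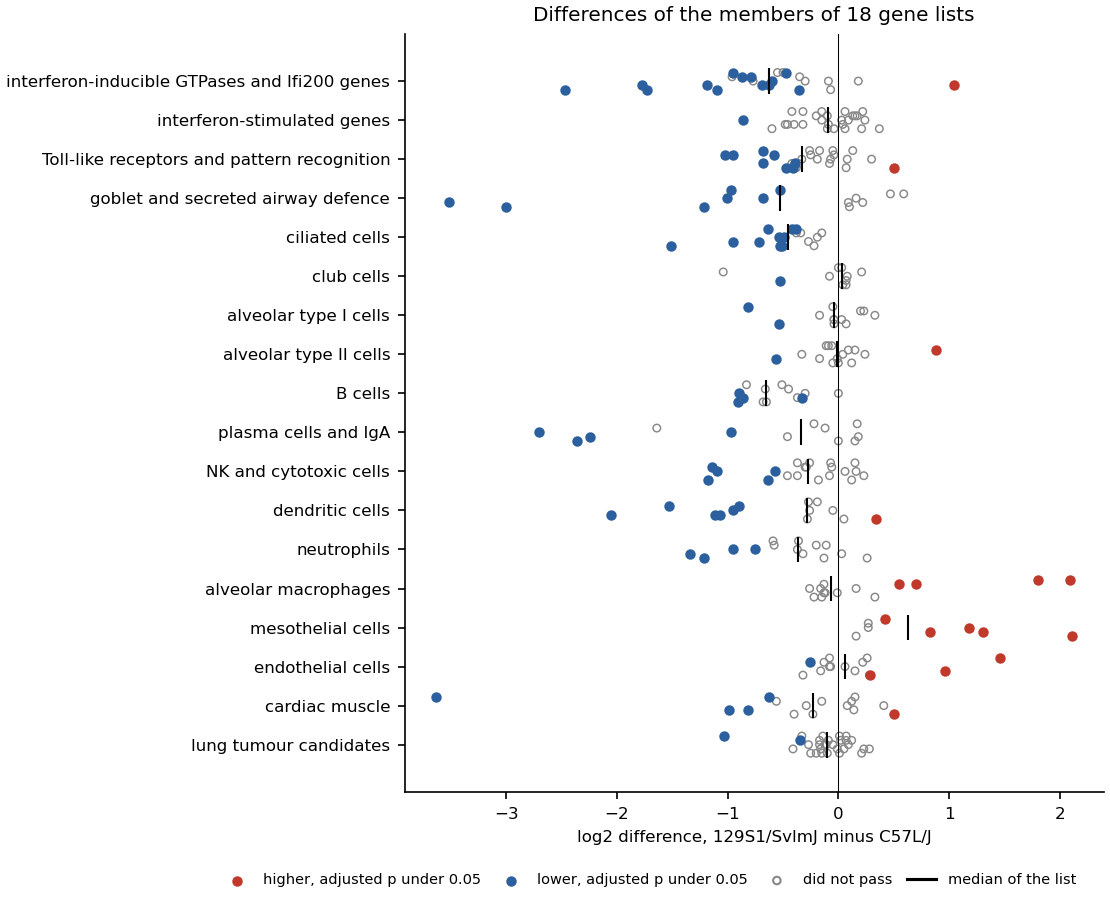
Log2 difference, 129S1/SvlmJ minus arrays labelled C57L/J (x axis), of each measured member of 18 gene lists (y axis). Filled points passed at an adjusted p under 0.05 and black bars mark the list medians; medians lie left of 0 for interferon-inducible GTPases (-0.63), ciliated cells (-0.46) and B cells (-0.65) and right of it for mesothelial cells (0.63), beside -0.09 for interferon-stimulated genes.

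Heart muscle RNA, which can reach a lung sample through the pulmonary veins, differed by array. Nppa, the atrial natriuretic peptide gene, read 4.94, 6.13 and 5.67 in 129S1/SvlmJ and 7.58, 9.72 and 10.33 on the arrays labelled C57L/J (-3.63, SE 0.60, adjusted p = 0.000273). Of 15 cardiac genes 4 were lower and 1 higher, beside 5.03% and 2.9% of all genes, and 2 were lower without replicate 1 of 129S1/SvlmJ or replicate 3 labelled C57L/J. Myl3, of the ventricle and slow muscle, was lower by 0.82. Actc1, the cardiac actin, at 0.50, missed the threshold under 8 of 14 alternatives, among them the removal of any array but replicate 3 labelled C57L/J (adjusted p up to 0.304). Against the other 7 strains 3 of the 15 were lower in 129S1/SvlmJ, beside 6.28% of all genes, and Nppa did not pass (-1.21, adjusted p = 0.097). The atrial genes Myl4, Myl7 and Sln did not pass, nor did Myh6. The mean level of the cardiac list was 7.36 to 7.69 on the 129S1/SvlmJ arrays and 7.57 to 8.26 on the arrays labelled C57L/J.

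Of 40 chemokine and chemokine receptor genes 7 were lower and 2 higher, beside 5.03% and 2.9% of all genes. Relative to the other 7 strains 5 were lower and 3 higher in 129S1/SvlmJ, beside 6.28% and 3.53% of all genes. Cxcl17, a chemokine of mucosal epithelium, was lower by 0.78, and Cxcr3, the receptor for Cxcl9, by 0.43. Ccr3, the eotaxin receptor of eosinophils, was higher by 0.86, and missed the threshold without replicate 1 or 2 of either strain (adjusted p up to 0.114).

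Among genes of lung tumours, 2 of 29 passed, both lower, a share near the 5.03% of all genes, with a median of -0.10. Cdkn1a encodes p21, an inhibitor of cyclin-dependent kinases that p53 induces. It read 7.38, 7.27 and 7.25 in 129S1/SvlmJ and 8.41, 8.22 and 8.37 on the arrays labelled C57L/J (-1.03, SE 0.15, adjusted p = 7.76e-05). Of the other 7 strains 6 lay nearer to 129S1/SvlmJ and A/J, at 8.20, nearer to C57L/J. Ccnd1, which encodes cyclin D1, was lower by 0.35 and did not pass under 7 of the alternatives. The oncogenes Egfr, Erbb2, Braf, Met and Myc and the suppressors Cdkn2a, Stk11, Rb1 and Rassf1 did not pass. Of 29 cell cycle genes 3 were lower, beside 5.03% of all genes, Top2a by 0.81, Kif23 by 0.70 and Ccnb2 by 0.46. Ccnb2 missed the threshold whichever of the 6 arrays was left out (adjusted p up to 0.119), while Mki67, Cdk1 and Plk1 did not pass. Against the other 7 strains 10 of the 29 were lower in 129S1/SvlmJ, beside 6.28% of all genes, and 4 on the arrays labelled C57L/J, beside 3.19%.

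Detoxification and redox genes differed in a few members. Cyp1a1, an enzyme that activates aromatic hydrocarbons and is induced through the aryl hydrocarbon receptor, read 7.73, 7.21 and 7.66 in 129S1/SvlmJ and 6.33, 6.04 and 6.32 on the arrays labelled C57L/J (1.30, SE 0.18, adjusted p = 2.62e-05). All other strains read 6.81 to 8.09, above the arrays labelled C57L/J. Of 27 cytochrome P450 genes 3 were higher and 2 lower, beside 2.9% and 5.03% of all genes. Cyp4f13 was steady within each strain, at 7.66 on all 3 arrays of 129S1/SvlmJ and 8.33 to 8.47 on the arrays labelled C57L/J (-0.75, SE 0.07).

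Of 43 conjugating and antioxidant genes 7 were lower and 2 higher, beside 5.03% and 2.9% of all genes. Relative to the other 7 strains 8 were lower and 5 higher in 129S1/SvlmJ, beside 6.28% and 3.53% of all genes. Gclc, the catalytic subunit of the enzyme that limits glutathione synthesis, read 8.88, 8.73 and 8.93 in 129S1/SvlmJ and 9.78, 9.69 and 9.62 on the arrays labelled C57L/J (-0.85, SE 0.08, adjusted p = 1.85e-07). Gclm, its modifier subunit, was lower by 0.33, Hmox1, which degrades haem, by 0.44 and Txnrd1, a thioredoxin reductase, by 0.28. Gclm missed the threshold with only the 6 arrays of the pair (adjusted p = 0.0689) and without replicate 2 of 129S1/SvlmJ or replicate 3 labelled C57L/J, and Txnrd1 without replicate 1 or 2 of 129S1/SvlmJ or replicate 1 or 3 labelled C57L/J (up to 0.132). Slc7a11, which imports cystine for glutathione, was lower by 1.13 (adjusted p = 7.3e-06). For Slc7a11 the arrays labelled C57L/J, at a mean of 5.59, lay above all 7 other strains. Those read 4.40 to 5.30, and 129S1/SvlmJ, at 4.47, lay within that range. Nqo1, a quinone reductase, and Srxn1, which repairs peroxiredoxins, did not pass.

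Of 22 complement genes 2 were higher and 1 lower, beside 2.9% and 5.03% of all genes. C2, the serine protease of the classical convertase, read 6.44, 6.62 and 6.80 in 129S1/SvlmJ and 5.40, 5.17 and 5.42 on the arrays labelled C57L/J (1.29, SE 0.12, adjusted p = 8.86e-08). Its neighbour Cfb, factor B of the alternative pathway, went the other way and was lower by 0.97 (7.52, 7.80 and 7.99 in 129S1/SvlmJ and 9.01, 8.47 and 8.74 on the arrays labelled C57L/J). For C2 all 7 other strains, and for Cfb 6 of 7, lay nearer to 129S1/SvlmJ. Hc was higher by 0.88, and the other 7 strains ran between 9.80 in DBA/2J and 11.52 in C57BL/6J.

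Outside the lists, several of the largest differences parted the 9 strains into a high and a low group. Stard10, a lipid transfer protein, read 9.40, 9.53 and 9.45 in 129S1/SvlmJ and 5.51, 5.26 and 5.19 on the arrays labelled C57L/J (4.14, SE 0.10, adjusted p = 5.14e-19). The other 7 strains read 8.87 to 9.52. Uevld, which encodes a protein with a ubiquitin-conjugating enzyme-like domain, read 6.81, 7.21 and 7.10 in 129S1/SvlmJ and 2.57, 3.02 and 3.17 on the arrays labelled C57L/J, with the values labelled C57L/J inside the range of absent Y-linked RNA. The other 7 strains read 6.60 to 7.24. For these 2 genes the low level belonged to the arrays labelled C57L/J alone.

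BC018473 read 8.56, 8.60 and 8.50 in 129S1/SvlmJ and 4.31, 4.31 and 4.34 on the arrays labelled C57L/J (4.23, SE 0.10, adjusted p = 8.51e-19). KK/HlJ, at 8.37, shared the high level and the other 6 strains read 4.12 to 4.34. Klk1b22, a kallikrein of the tissue family, read 6.75, 8.03 and 7.23 in 129S1/SvlmJ and 3.41, 3.27 and 3.31 on the arrays labelled C57L/J, and C3H/HeJ, at 7.44, was the other high strain. Kallikrein genes are near-identical copies, so the member that gave the signal is uncertain. Vipr2, a receptor for vasoactive intestinal peptide, read 8.13, 8.11 and 8.15 in 129S1/SvlmJ and 5.14, 4.93 and 5.42 on the arrays labelled C57L/J (2.97, SE 0.13), and DBA/2J, at 5.29, was the other low strain.

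Nell1, a secreted protein of bone and epithelium, read 3.98, 4.14 and 3.76 in 129S1/SvlmJ, within the Y-linked range with Sry counted and near its upper end without it, and 7.77, 7.53 and 7.08 on the arrays labelled C57L/J (-3.50, SE 0.16, adjusted p = 6.75e-13). KK/HlJ, at 7.27, shared the high level and the remaining 6 strains read 3.78 to 4.14. Anxa8, an annexin of epithelia, read 5.26, 6.01 and 6.23 in 129S1/SvlmJ and 7.92, 7.76 and 8.11 on the arrays labelled C57L/J (-2.10, SE 0.18), and all 7 other strains, at 7.18 to 8.11, lay with C57L/J. Cntn1, a contactin known from neurons, was higher in 129S1/SvlmJ by 2.01 and above all 7 other strains, which read 5.14 to 6.24. Fbp2, the muscle isoform of fructose bisphosphatase, was higher by 2.25. Mrap2, an accessory protein of melanocortin receptors, was lower by 1.93, and of the other strains DBA/2J, at 6.48, read like the arrays labelled C57L/J.

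Fzd6, a Frizzled receptor, and Adam28, a membrane protease, were chosen after their values were seen and were also low in 129S1/SvlmJ, with differences of -1.38 for Fzd6 and -1.48 for Adam28. Fzd6 read 7.37, 7.16 and 7.43 in 129S1/SvlmJ and 8.77, 8.79 and 8.54 on the arrays labelled C57L/J, with all 7 other strains at 8.56 to 9.03. For Adam28 the strain means were 5.78 in 129S1/SvlmJ and 7.26 on the arrays labelled C57L/J. C3H/HeJ, KK/HlJ and DBA/2J, at 6.02, 6.20 and 6.42, lay nearer to 129S1/SvlmJ, and the remaining strains read 7.15 to 7.69. Serpina3n, an inhibitor of serine proteases that rises in inflammation, also chosen after its values were seen, was higher by 1.61 and above all 7 other strains. Mitf, the transcription factor of melanocytes, mast cells and osteoclasts, was lower by 1.41 and was also chosen after its values were seen, with the arrays labelled C57L/J above all 7 other strains. Myo5a, the myosin of pigment granules whose loss gives the dilute coat, was lower by 0.97.

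For 6 of the 40 lists no member passed: mast cells and basophils, platelets and megakaryocytes, erythroid cells, skeletal muscle, adipocytes, and the Y-linked genes with Xist. A miss of the threshold with 3 arrays a strain does not show that these genes were alike. Of the platelet and megakaryocyte genes, 8 of 10 were lower in 129S1/SvlmJ than in the other 7 strains, beside 6.28% of all genes. The arrays labelled C57L/J also had 8 of the 10 lower than those strains, beside 3.19%. Of the 676 genes on the lists 147 passed and 37 were called, beside 7.94% and 0.751% of all genes. The lists were chosen with earlier results of these data known, so these counts are not a result about the lists. Of the 152 called genes 115 were on no list.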

How the data were processed

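Total RNA of right lung from mice of 9 strains was measured on 27 Affymetrix Gene ST arrays, 3 a strain. The authors deposited one table of log2 signals per probe set, made with the affy package per the submitters' processing notes. The normalization method and genome build are not given in the sources used here, and array counts limit the precision. Of 21225 probe sets, 20239 carried 1 gene symbol in the platform annotation and were tested, and 986 carried none.

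The deposited log2 values were fitted as they stand with limma 3.58.1 in R 4.3.3 (lmFit with a mean per strain over all 27 arrays, then eBayes), so all strains share the estimate of spread. P-values were two-sided and adjusted by Benjamini-Hochberg over the 20239 genes. The fit was tested on simulated data.

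The members and the 40 gene lists were chosen with earlier results of these data known. Named genes were the 20 largest differences in each direction without overlap, up to 4 members by p in every list, all tumour candidates and strain-variable genes, and runs of at least 3 called neighbours within 10 tested genes, 230 in all. A further 91, most of them list members, were chosen after their values were seen. Alternatives were quantile normalization, median centring, dim probe sets left out (mean under 6), all probe sets, a trended robust prior, a replicate block, weights per array, only the 6 arrays, a minimum difference of 2, and each array left out in turn.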

Additional observations from a re-analysis of the deposited data

How the results depend on the processing

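The count of called genes (152) lay between 147 and 161 under quantile normalization, median centring, all probe sets, the trended robust prior and array weights. It stayed in that range with only the 6 arrays of the pair, and with each of these 6 left out. Leaving out dim probe sets left 98 called, 60 of them lower, and 51 for C57L/J against the other 7 strains, with fewer genes tested. A minimum difference of 2 left 36, 15 higher and 21 lower. The count at adjusted p alone (1606) was 1022 with only the 6 arrays, which gives fewer arrays to estimate the spread, and 1028 without C57L/J replicate 1. With single arrays left out, called genes ranged over 148 to 161, higher 51 to 58, lower 92 to 110, adjusted p alone 1028 to 1414, 129S1/SvlmJ against the other 7 strains 59 to 80, and C57L/J against them 81 to 84. Same-numbered arrays correlated in their deviations at 0.142, 0.117 and 0.0108, so the numbers were not taken as pairs, and the replicate block gave 153 called genes, 53 higher and 100 lower. Of 187 named genes past the threshold, 127 stayed past it under each alternative that tested them, 60 were lost under at least 1, and none reversed. No detection calls were used, so for genes near the Y-linked range a low level is a limit set by background.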
